A study of Mus musculus with 8 samples.

Results

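Peaks of the transcription factor IRF5 were examined at the solute carrier genes of mouse macrophages, the Slc genes that encode membrane transporters for sugars, amino acids, metals, nucleotides and other solutes. The members were all genes with a symbol made of Slc, a subfamily number, letters and a final number that were named as nearest to any peak of the 6 deposited lists, except Slc2a1 and Slc26a8. This gave 215 of 20824 named genes, in 46 subfamilies. Every one of the 215 was the nearest gene of a peak in at least 1 single library. Slc genes nearest to no peak are not named in the lists and were not analysed here, among them Slc15a4, Slc40a1, Slc7a2, Slc1a5 and Slc31a2.

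Macrophages were grown from bone marrow of wild-type (wt) mice and had been stimulated with CpG, unmethylated DNA recognised by TLR9, or had received PBS, here called control. IRF5 was mapped by CUT&Tag, in which antibody-bound transposase tags the DNA beside the target protein. Each condition had 2 anti-IRF5 libraries, whose lists held 13553 and 25851 peaks in CpG 1 and CpG 2, and 29226 and 37315 in control 1 and control 2, so CpG 1 had fewer than any other library. Read depth is unknown. The names of the lists set each library against an IgG library of its own condition, with 1 number for both libraries of a condition, so the IgG background and the condition cannot be told apart. The labels give neither the dose and time of CpG nor whether libraries came from separate animals or cultures, and p-values measure only the spread between these libraries. Of 9 named macrophage markers, 3 and 8 had a promoter peak in CpG 1 and CpG 2, and 8 and 8 in control 1 and control 2. Adgre1, Cd68 and Msr1 had one in all 4 libraries and Lyz2 in none. Of the 2 named B cell markers, neither had one in any library, and of 3 T and NK cell markers and 4 neutrophil markers 1 each had one, in control 2 only. Of 3 named dendritic cell markers, 1 and 1 had a promoter peak in CpG 1 and CpG 2, and 2 and 2 in control 1 and control 2, with Xcr1 in all 4. Of all named genes, 10.4% and 22.2% had one in CpG 1 and CpG 2, 24.1% and 28.6% in control 1 and control 2, and 60% had none in any library. Not named in the lists were 1 of 10 macrophage, 3 of 5 B cell and 3 of 6 T and NK cell markers. The same held for 1 of 5 neutrophil and 2 of 5 dendritic cell markers. A promoter peak is not a measure of expression, and in bulk libraries fewer cells with a signal and less signal per cell cannot be told apart.

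IRF5 acts downstream of MyD88 in Toll-like receptor signalling and is known for driving inflammatory genes in macrophages. Solute carriers meet this pathway in endolysosomes, where Toll-like receptors for nucleic acids signal and where transporters of the Slc15 subfamily export histidine and small peptides. Activated macrophages are also known to change their uptake of glucose, amino acids and cystine, their export of lactate, and their handling of iron and zinc, all of which pass through solute carriers.

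Slc35b2, Slc36a4, Slc33a1 and Slc39a13 were the members whose promoter peaks had their summits within 250 bp before to 50 bp after the gene start in all 4 libraries, and had a promoter in the RefSeq table of GRCm38.p6. Their promoters are printed to show the DNA around the RefSeq gene start. Whether RefSeq and the annotation of the peak lists use the same start was not checked. Capitals mark every match, on either strand, to GGGCGG (the GC box), CGGAAG (an ETS core) or CCAAT. GAAANNGAA, a spacing of the interferon-stimulated response element that IRF proteins bind, was searched as well and had no match in these 4. No match overlapped one of another motif, the start of each gene lies 50 bases before the 3' end, and GRCm38.p6 positions differ from those of the peak lists, whose build is not stated.
Promoter of Slc35b2, chr17:45563686-45563985, plus strand: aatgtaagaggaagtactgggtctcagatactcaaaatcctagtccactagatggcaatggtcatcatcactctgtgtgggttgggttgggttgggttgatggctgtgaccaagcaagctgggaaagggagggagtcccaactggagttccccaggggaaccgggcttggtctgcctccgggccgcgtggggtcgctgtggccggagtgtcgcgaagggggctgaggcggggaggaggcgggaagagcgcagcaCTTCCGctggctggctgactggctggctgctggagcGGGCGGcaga
Promoter of Slc36a4, chr9:15709488-15709787, plus strand: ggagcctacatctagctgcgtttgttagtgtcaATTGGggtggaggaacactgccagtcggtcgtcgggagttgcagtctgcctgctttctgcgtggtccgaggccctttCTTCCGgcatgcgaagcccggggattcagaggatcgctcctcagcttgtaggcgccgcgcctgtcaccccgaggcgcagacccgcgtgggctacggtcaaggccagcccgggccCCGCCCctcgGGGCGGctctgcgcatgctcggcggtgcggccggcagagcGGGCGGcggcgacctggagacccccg
Promoter of Slc33a1, chr3:63964684-63964983, minus strand: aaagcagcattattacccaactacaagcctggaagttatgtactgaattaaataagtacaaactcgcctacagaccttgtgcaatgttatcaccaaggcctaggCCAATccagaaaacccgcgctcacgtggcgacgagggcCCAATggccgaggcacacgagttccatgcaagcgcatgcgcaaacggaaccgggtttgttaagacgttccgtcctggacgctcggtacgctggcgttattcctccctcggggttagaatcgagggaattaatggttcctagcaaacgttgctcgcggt
Promoter of Slc39a13, chr2:91070266-91070565, minus strand: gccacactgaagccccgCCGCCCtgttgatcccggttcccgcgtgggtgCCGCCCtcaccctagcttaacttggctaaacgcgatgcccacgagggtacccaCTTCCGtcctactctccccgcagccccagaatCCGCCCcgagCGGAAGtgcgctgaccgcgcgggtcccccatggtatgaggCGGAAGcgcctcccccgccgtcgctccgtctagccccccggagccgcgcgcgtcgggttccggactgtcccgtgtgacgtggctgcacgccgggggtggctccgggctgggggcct
The promoter of Slc39a13 held 3 GC boxes and 3 ETS cores, and that of Slc36a4 held 3 GC boxes, 1 ETS core and 1 CCAAT. The promoter of Slc35b2 held 1 GC box and 1 ETS core, and that of Slc33a1 held 2 CCAAT matches and neither of the others. Their G and C content was 71.7%, 69.0%, 62.0% and 52.0% in the same order.

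A GC box was common to nearly all members that were bound in every library. Of the 20 such members 18 had an entry in the promoter table. GGGCGG was present in 17 of the 18 (94.4%), against 70.1% of 719 other protein-coding genes bound in all 4 libraries and 49.2% of all 17492 protein-coding genes in the table. Their median G and C content was 64.3%, with a range of 52.0% to 77.3%, against 61.2% and 56.3% in those same sets. CCAAT was present in 12 of the 18 (66.7%), against 55.2% and 42.3%, and CGGAAG in 5 (27.8%), against 33.1% and 23.5%. GAAANNGAA was present in 0 of the 18, against 8.90% and 9.43%, which says only that these letters are not in these windows. A gene with several starts counted as a match if any of its promoters had one. The same comparison over all members was void, because 165 of 215 (76.7%) had an entry.

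Slc genes were bound at their promoters somewhat more often than all named genes in every library, and less often than protein-coding genes in all libraries but CpG 1. A promoter peak is one that the authors' annotation puts in the Promoter class of the gene. Promoter peaks were called at 34 and 56 of the 215 members in CpG 1 and CpG 2 (15.8% and 26.0%), and at 61 and 73 in control 1 and control 2 (28.4% and 34.0%). All named genes were called at 10.4% and 22.2% in the CpG libraries and 24.1% and 28.6% in the control libraries. The 11335 named genes that code for proteins in the RefSeq table, which hold all 215 members, were called at 14.1% and 30.5% in the CpG libraries, and at 33.2% and 38.8% in the control libraries. Over any library, 98 members were called (45.6%), against 40% of all named genes and 53.4% of protein-coding genes, and 32 in 1 library alone (14.9%), against 15.1% and 19%. The lists of whole conditions called 35 members in CpG and 62 in control, against 15% and 24.9% of all named genes. The members therefore lay 5.38 and 3.83 percentage points above all named genes in CpG 1 and CpG 2, and 4.27 and 5.32 points above them in control 1 and control 2. Against protein-coding genes the same differences were 1.71 and -4.46 points in the CpG libraries, and -4.78 and -4.85 points in the control libraries.

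**Figure D1:**
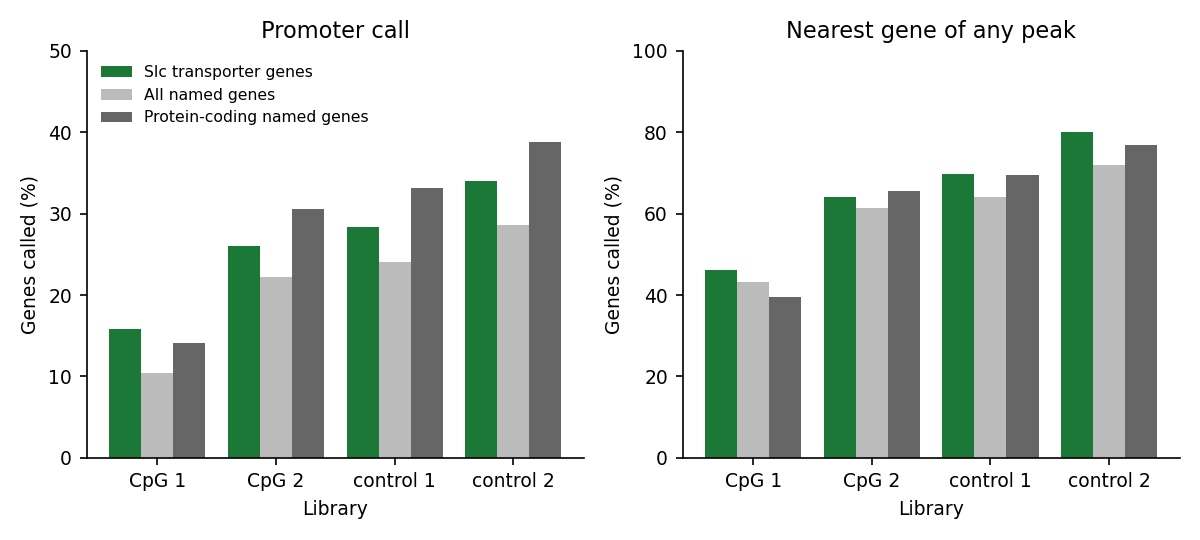
Percent of Slc genes (green), of all named genes (light grey) and of protein-coding named genes (dark grey) with a Promoter call (left) and as the nearest gene of any peak (right), in each of the 4 libraries. Promoter calls of Slc genes range from 15.8% in CpG 1 to 34.0% in control 2 and lie above all named genes in each library, and below protein-coding genes except in CpG 1.

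CpG libraries had fewer promoter-bound Slc genes than control libraries, and likewise fewer promoter-bound genes in all. The members were called at 20.9% ± 7.24 in CpG and 31.2% ± 3.95 in control libraries (SD, n = 2 each), a difference of -10.2 percentage points (exact permutation p = 0.333, two-sided, which is as small as the 6 assignments of 4 libraries allow). All named genes were called at 16.3% ± 8.34 and 26.4% ± 3.21 in the same conditions (SD, n = 2 each). With the background of each list taken off, the excess of the members was 4.61 ± 1.10 points in CpG and 4.80 ± 0.741 points in control libraries, a difference of -0.19 points (exact permutation p = 1). This sign rested on single libraries, as the difference was 0.58 without CpG 2 and 0.33 without control 2. Without CpG 1, the library with the shortest list, the members' difference between conditions was -5.12 points, and with the 13553 strongest peaks of each list it was -2.79 points.

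As nearest genes of any peak, Slc genes lay above all named genes in each library, while their share of the peaks was nearly level. They were nearest to 143 and 262 peaks in CpG 1 and CpG 2, and to 321 and 397 in control 1 and control 2. These were 1.06% and 1.01% of all peaks in the CpG lists and 1.10% and 1.06% in the control lists, a difference of -0.05 points between condition means (exact permutation p = 0.333). In CpG 1 and CpG 2, 46.0% and 64.2% of the members had at least 1 nearest peak, against 43.1% and 61.5% of all named genes and 39.6% and 65.6% of protein-coding genes. In control 1 and control 2, 69.8% and 80.0% did, against 64% and 72% of all named genes and 69.5% and 76.9% of protein-coding genes.

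Peaks nearest to Slc genes lay in promoters more often and between genes less often than peaks in general, in each library. Neither these shares nor those by distance below were set against protein-coding genes, which had promoter calls more often than all named genes. Promoter calls made up 24.5% and 27.9% of them in CpG 1 and CpG 2, against 15.8% and 20.2% of all peaks, and 23.7% and 23.4% in control 1 and control 2, against 19.7% and 18.6%. Intergenic peaks made up 25.2% and 17.6% in the CpG libraries, against 36.8% and 28.6% of all peaks, and 18.4% and 20.4% in the control libraries, against 26.8% and 28.3%. Introns held 47.6% to 51.1% of the members' peaks and 45.6% to 51.1% of all peaks over the 4 libraries. The peaks were of ordinary strength: their median percentile by fold enrichment, the authors' ratio of a peak's pileup to its local background, was 45.0 and 47.8 in the CpG lists and 51.7 and 50.6 in the control lists. Counted by distance, 34 and 74 members were nearest to a peak with its summit within 1 kb of the gene start in CpG 1 and CpG 2 (15.8% and 34.4%), against 11.6% and 27.4% of all named genes, and 82 and 92 in control 1 and control 2 (38.1% and 42.8%), against 30.5% and 34.5%. Of 224 best promoter peaks, 1 for each member and library called, 211 (94.2%) had their summit within 2 kb upstream of the gene start and 120 within 300 bp upstream of it.

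A set of 20 Slc genes carried a promoter peak in every library, among them transporters of the Golgi, lysosome, peroxisome and mitochondrion. These were 9.30% of the 215 members, against 5.51% of all named genes and 7.76% of protein-coding genes, and without CpG 1 there were 36, against 13.1% of all named genes. The 16 members called in all libraries but CpG 1 made up 7.44%, against 7.6% of all named genes and 10.7% of protein-coding genes. Without CpG 1, the share of members called in every remaining library was therefore below that of protein-coding genes. It stayed above that of all named genes. The small excess over protein-coding genes in all 4 libraries thus depended on CpG 1. In 18 of the 20 the best promoter peaks of the 4 libraries fell in 1 overlapping region. Slc30a5, a transporter of zinc into the secretory pathway, and Slc31a1, the copper importer, were the other two. At Slc31a1 this followed from the choice of the best peak, as 1 promoter region there held a peak in all 4 libraries. Its fold enrichments were 3.31 and 4.03 in CpG 1 and CpG 2, and 5.49 and 10.7 in control 1 and control 2. Summits of the best peaks lay within 100 bp of each other in 6 of the 20 and more than 500 bp apart in 6. Fold enrichments are given below with percentiles within their own list, since values of different lists are not comparable.

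Slc35b2, which carries the sulphate donor PAPS into the Golgi (chromosome 17, 45874799 to 45878597), had the highest lowest percentile of the 20. The fold enrichment of its promoter peak was 7.84 in CpG 1 and 13.3 in CpG 2, against 8.92 in control 1 and 8.14 in control 2. They stood at percentiles 91.4 and 92.9 in the CpG lists and 87.7 and 75.2 in the control lists, so this promoter was well above the middle of each list. Counted from the gene start, with upstream negative, its summits lay at -13 and -16 bp in CpG 1 and CpG 2, and at -37 and -19 bp in control 1 and control 2.

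Slc13a3, a sodium-coupled carrier of dicarboxylates such as succinate (chromosome 2, 165246947 to 165315150), was enriched 7.17-fold in CpG 1 and 28.7-fold in CpG 2, against 6.97-fold in control 1 and 11.8-fold in control 2. The percentiles were 86.7 and 99.2 in the CpG lists and 71.6 and 89.9 in the control lists, highest in CpG 2. All 4 summits lay between -572 and -522 bp. Slc13a3 was nearest to 2 and 3 peaks in CpG 1 and CpG 2, and to 11 and 5 in control 1 and control 2, of which 8 in control 1 lay in introns.

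Slc22a4, the ergothioneine transporter, stood at percentiles 73.8 and 56.6 in CpG 1 and CpG 2 and 81.5 and 81.2 in control 1 and control 2. Slc25a17, a peroxisomal carrier of cofactors, stood at 91.9 and 89.1 in the CpG lists and 79.4 and 50.8 in the control lists. For Slc22a4 both control libraries lay above both CpG libraries, and for Slc25a17 and Slc35b2 both CpG libraries lay above both control libraries. With 2 libraries per condition, such an order cannot be told from the spread between libraries (smallest exact permutation p 0.333).

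Slc15a3, an endolysosomal exporter of histidine and peptides, was called in all 4 libraries through a peak inside the gene. Its fold enrichment was 5.11 in CpG 1 and 26.1 in CpG 2, against 6.54 in control 1 and 17.7 in control 2. Its summits lay 2133 to 2606 bp after the annotated gene start (chromosome 19, 10817090), and in all 4 libraries it was also in the promoter of Gm10802, its nearest gene. Within 1 kb of its own start Slc15a3 had a nearest peak only in control 2.

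Slc25a28, a mitochondrial iron importer, stood at percentiles 50.1 and 59.8 in CpG 1 and CpG 2 and 59.8 and 55.0 in control 1 and control 2, close to the middle of each list. Slc2a6, a hexose transporter of the GLUT family, stood at 44.0 and 40.7 in the CpG lists and 76.0 and 82.5 in the control lists. Slc36a4, an amino acid transporter, stood at 30.7 and 66.6 in CpG 1 and CpG 2 and 74.5 and 65.8 in control 1 and control 2. The promoter summit of Slc2a6 lay at -27 bp in CpG 1, and at -26 and -29 bp in control 1 and control 2, while CpG 2 had 2 promoter peaks of nearly equal fold enrichment, at -606 bp (5.69) and -188 bp (5.45).

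In the other 12 the lowest of the 4 percentiles was 29.3 or less, and it fell in CpG 1 in all but Slc33a1 and Slc35e1. They were the mitochondrial carrier genes Slc25a39 (glutathione) and Slc25a42 (coenzyme A), the lysosomal Slc17a5 (sialic acid) and Slc46a3, Slc33a1 (acetyl-CoA), Slc20a1 (phosphate), Slc6a6 (taurine), Slc31a1 (copper), Slc30a5 and Slc39a13 (zinc), Slc35e1 and Slc35f5. Slc17a5 was at percentile 8.0 in CpG 1 and 97.0 in CpG 2, and at 91.2 and 99.6 in control 1 and control 2. Slc33a1 was the reverse case, at 94.8 in CpG 1 and 28.4 in CpG 2, and at 30.9 and 66.8 in control 1 and control 2. Slc33a1 was the only 1 of these 12 with CpG 1 above CpG 2. At Slc35e1, whose lowest percentile was in control 2, CpG 1 and CpG 2 stood at 32.5 and 90.4.

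**Figure D2:**
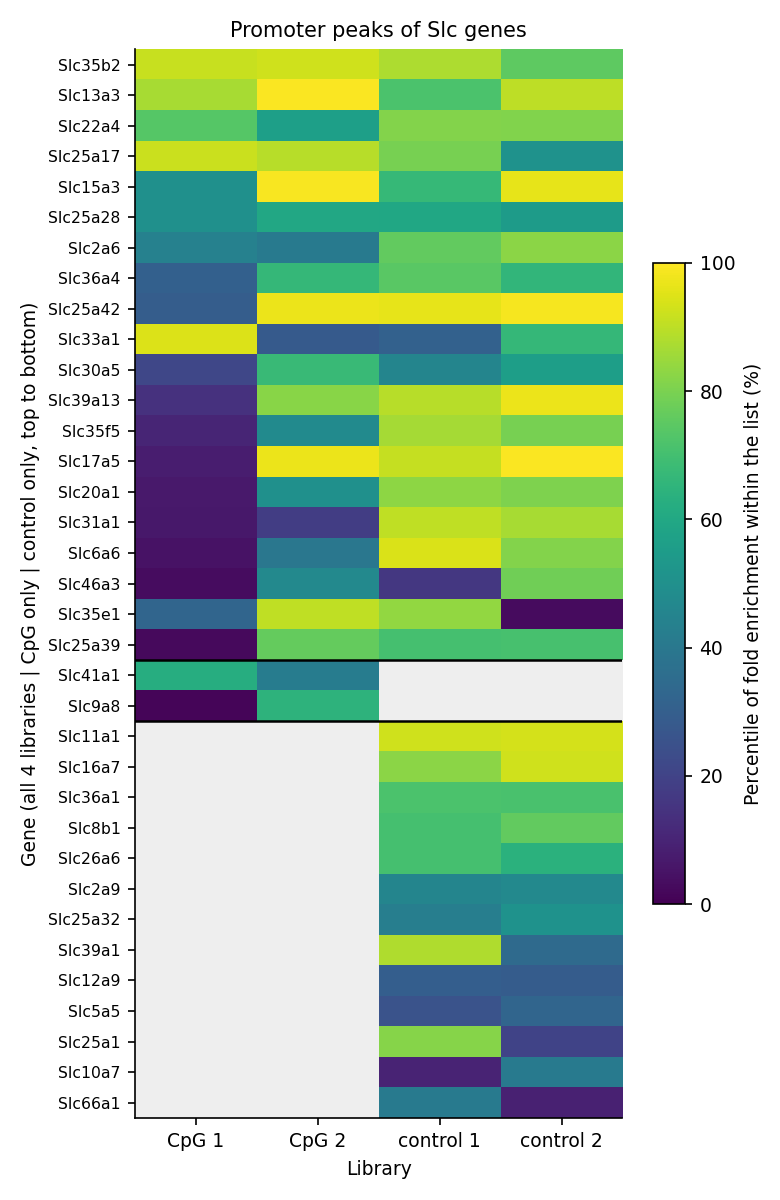
Percentile of the best promoter peak by fold enrichment within its own list (colour, 0 to 100), for the Slc genes with a Promoter call in all 4 libraries (20, top), in the CpG libraries alone (2, middle) and in the control libraries alone (13, bottom), where columns are libraries and pale grey is no Promoter call. Slc35b2 is high in each library, and many genes bound in all 4 are low in CpG 1.

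Among Slc genes called in the CpG libraries alone, only Slc41a1 had no control peak over its promoter peaks. CpG-only promoter calls, made in both CpG libraries and no control library, were found at 2 members, Slc41a1 and Slc9a8 (0.930%), against 0.61% of all named genes and 0.812% of protein-coding genes. Slc41a1, a magnesium transporter gene (chromosome 1, 131755230 to 131776603), had a fold enrichment of 5.58 in CpG 1 and 5.76 in CpG 2, with summits at 379 and 438 bp, and it was the nearest gene of no peak in either control library. These peaks stood at percentiles 62.3 and 41.9, and with the 13553 strongest peaks of each list Slc41a1 was called in 1 library, CpG 1. Slc9a8, a sodium and proton exchanger of the Golgi, had a fold enrichment of 2.54 in CpG 1 and 7.08 in CpG 2, with summits at -24 and -169 bp. Both control libraries had an overlapping peak there, with a fold enrichment of 4.48 in control 1 and 4.60 in control 2 and a summit 33 bp after the start, which the annotation put in the exon and 5' untranslated region. For Slc9a8 the class of the peak differed, and not its presence.

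Control-only promoter calls, made in both control libraries and no CpG library, were found at 13 members (6.05%), against 4.36% of all named genes and 6.06% of protein-coding genes. Slc11a1, the phagosomal metal transporter also known as Nramp1 (chromosome 1, 74414353 to 74425221), led these by percentile but was bound in all 4 libraries. The fold enrichment at its start was 11.04 in CpG 1 and 18.7 in CpG 2, against 10.4 in control 1 and 14.3 in control 2, at percentiles 98.3 and 97.2 in the CpG lists and 92.8 and 93.7 in the control lists. The summits lay at 25 and 151 bp in the CpG libraries and at -220 and -21 bp in the control libraries. The annotation put the CpG peaks in an exon or an intron and the control peaks in the promoter, so here too the class differed and not the presence of a peak.

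Of the 13, 10 had no CpG peak over the control peaks, and Slc16a7 and Slc36a1 stood out among these by percentile. Slc16a7, a monocarboxylate transporter (chromosome 10, 125055138 to 125225334), was enriched 8.04-fold in control 1 and 13.4-fold in control 2, with summits at -649 and -638 bp, and was nearest to no peak in either CpG library. Slc36a1, a lysosomal amino acid transporter, had 7.01 and 7.72 in the control libraries and no overlapping CpG peak. Slc36a1 was still the nearest gene of 1 peak in CpG 2, with 9.50 at percentile 83.1 and its summit more than 1 kb from the start. Slc26a6, an anion exchanger, had 6.85 and 6.99 at its promoter in control 1 and control 2, but a weak exonic peak at 871 bp was present in all 4 libraries (2.64 and 3.51 in CpG 1 and CpG 2, and 4.41 and 3.65 in control 1 and control 2). Slc25a32, a mitochondrial folate and FAD carrier, had 5.47 and 6.17, and Slc39a1, a zinc importer, 9.04 and 5.42 in control 1 and control 2. The others without a CpG peak over their promoter peaks were Slc10a7, Slc12a9, Slc25a1 (citrate), Slc5a5 (iodide) and Slc66a1 (lysosomal cationic amino acids). Slc66a1 was still bound in an intron about 2.5 kb after its start in all 4 libraries, with 7.60 and 25.3 in CpG 1 and CpG 2, and 15.8 and 22.8 in control 1 and control 2. Slc8b1, the mitochondrial sodium and calcium exchanger, had an overlapping peak in CpG 2, and Slc2a9, a urate transporter, had overlapping peaks in both CpG libraries at its control 1 peak.

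These counts rise by construction when 1 library is left out, since fewer calls are then required. Without CpG 1, CpG 2 or control 2 there were 10, 7 and 4 CpG-only members in place of 2, against 3.64%, 2.23% and 1.62% of all named genes. Without CpG 2, control 1 or control 2 there were 29, 24 and 21 control-only members in place of 13, against 12%, 10.7% and 8.5% of all named genes. Requiring no overlapping peak of the other condition, a rule chosen after the data were seen, left 1 CpG-only and 10 control-only members, against 0.403% and 3.58% of all named genes.

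**Figure D3:**
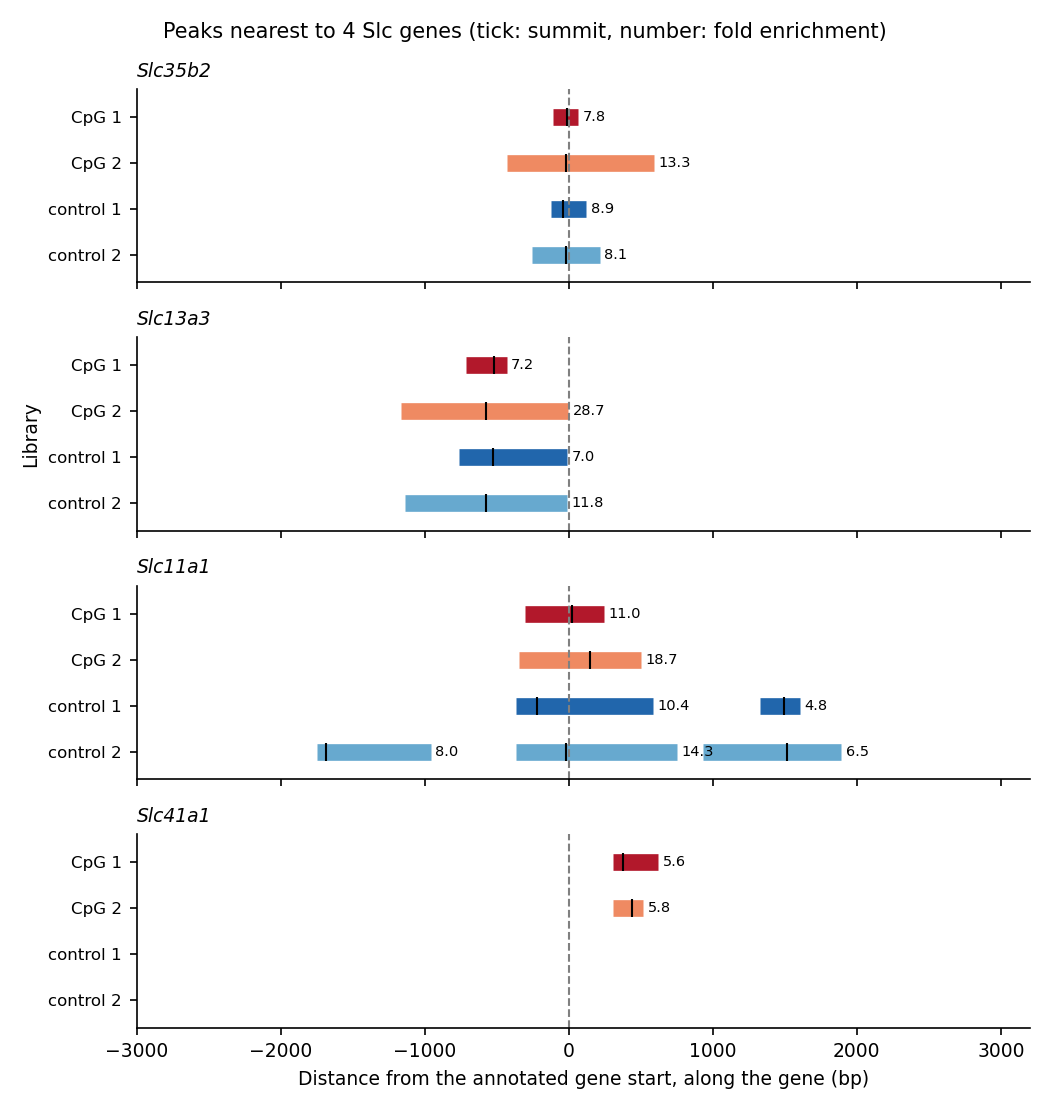
Peaks with Slc35b2, Slc13a3, Slc11a1 or Slc41a1 as their nearest gene near its start, by distance from the start along the gene (bp), for the 4 libraries. Bars span the peaks, ticks mark summits and numbers are fold enrichments within each list. The summit of Slc11a1 lies after the start in CpG 1 and CpG 2 and before it in control 1 and control 2, and Slc41a1 has a peak only in the CpG libraries.

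Grouped by role, endosome and lysosome transporters had promoter calls at 4 and 4 of 9 named genes in CpG 1 and CpG 2, and at 6 and 6 in control 1 and control 2. Over all named genes the shares were 10.4% and 22.2% in the CpG libraries and 24.1% and 28.6% in the control libraries, and over protein-coding genes 14.1% and 30.5%, and 33.2% and 38.8%. These shares are the background of each list of roles, and with lists this short 1 gene moves a share far. Slc15a3, Slc17a5 and Slc46a3 were called in all 4, and Slc38a7 in none. Slc29a3, a lysosomal nucleoside transporter, was called in CpG 2 alone, with a fold enrichment of 5.31, while its control peaks lay in introns. Slc38a9, the arginine sensor of the lysosome, was called in CpG 1 alone.

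Transporters linked to the metabolism of activated macrophages were called at 3 and 6 of 15 named genes in CpG 1 and CpG 2, against 10.4% and 22.2% of all named genes, and at 8 and 8 in control 1 and control 2, against 24.1% and 28.6%. Slc7a11, the cystine and glutamate exchanger, was enriched at its promoter 14.6-fold in CpG 2, 7.80-fold in control 1 and 13.0-fold in control 2, and had no promoter peak in CpG 1. An intron held a stronger site, about 5 kb after the start, with 5.00 and 16.6 in CpG 1 and CpG 2, and 15.6 and 32.9 in control 1 and control 2. Slc16a3, the lactate exporter, had promoter peaks only in CpG 2 (3.70) and control 2 (5.91), at percentiles 4.9 and 45.7 of their lists.

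Slc3a2 and Slc7a5, the heavy and light chains of a large neutral amino acid transporter, had their peaks mostly classed inside the gene and not in the promoter. Peaks of Slc3a2 in all 4 libraries, and of Slc7a5 in CpG 2 and control 2, nevertheless spanned the gene start. Slc3a2 had a peak 81 bp after its start in both CpG libraries, with fold enrichments of 4.11 and 4.80, and 84 and 223 bp after it in control 1 and control 2, with 7.45 and 10.1. The annotation put all 4 in the exon and 5' untranslated region, and a stronger intronic peak about 10 kb after the start had 4.61 and 14.9 in the CpG libraries and 11.2 and 17.4 in the control libraries. Slc7a5 had an intronic peak 871 to 931 bp after its start in CpG 2 (17.9) and in control 1 and control 2 (9.46 and 22.1), none there in CpG 1, and a promoter call only in control 1 (3.25). Slc37a2, a sugar phosphate exchanger, had 1 nearest peak over the 4 libraries, in CpG 2 (4.99).

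Transporters of iron, copper, manganese and haem were called at 2 and 3 of 6 named genes in CpG 1 and CpG 2, against 10.4% and 22.2% of all named genes, and at 3 and 3 in control 1 and control 2, against 24.1% and 28.6%. Slc25a28 and Slc31a1 were called in all 4. The strongest promoter peak of each library had another nearest gene, BC037704 for Slc25a28 and Fkbp15 for Slc31a1. At Slc31a1, CpG 2 had a further promoter peak (4.03, summit at -121 bp) whose nearest gene was Slc31a1 itself. With summits of nearest peaks within 1 kb of the start, Slc25a28 was called in 0 libraries. Slc39a14, an importer of zinc, iron and manganese, was called in CpG 2 alone (3.89). Control 1 had an overlapping peak there (3.71), which the annotation put in the exon and 5' untranslated region. An intron of Slc39a14 held a peak in both CpG libraries (6.0 and 4.87, about 21 kb after the start) that neither control library had. Of the list of transporters typical of neurons and epithelia, 10 of 25 genes were named. They were called at 0 and 1 in CpG 1 and CpG 2, against 10.4% and 22.2% of all named genes, and at 2 and 3 in control 1 and control 2, against 24.1% and 28.6%. In no library were 7 of the 10 called, against 60% of all named genes and 46.6% of protein-coding genes. The other 15 of the 25 were not named in the lists and are left out of these shares. With 10 genes, no verdict against either background was drawn.

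Among the 7 subfamilies with 8 or more members, sugar, monocarboxylate and mitochondrial carriers were called most often and sodium-coupled neutral amino acid transporters least. The mean over the 4 libraries was 26.0% for all members and 21.3% for all named genes. Of the 9 Slc2 genes, facilitative sugar transporters, 1 and 5 were called in CpG 1 and CpG 2, and 4 and 6 in control 1 and control 2, a mean of 44.4%. Of the 10 Slc16 genes, which carry monocarboxylates and thyroid hormone, 2 and 5 were called in the CpG libraries and 3 and 6 in the control libraries, a mean of 40.0%. Slc2a6 was the only one of these 19 called in all 4 libraries.

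Of the 31 mitochondrial carrier genes of Slc25, 6 and 12 were called in CpG 1 and CpG 2, and 15 and 14 in control 1 and control 2, a mean of 37.9%. Slc25a17, Slc25a28, Slc25a39 and Slc25a42 were called in all 4 libraries, Slc25a1 and Slc25a32 in both control libraries alone, and 11 of the 31 in none. The 19 Slc35 genes, mostly nucleotide sugar transporters, lay at the members' average, with a mean of 26.3%.

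At the low end, the 11 Slc6 genes, sodium- and chloride-coupled transporters of neurotransmitters and amino acids, were called at 2 and 2 in the CpG libraries and 2 and 3 in the control libraries, a mean of 20.5%. The 12 Slc22 genes, transporters of organic cations and anions, were called at 1 and 2 in the CpG libraries and at 1 and 2 in the control libraries, a mean of 12.5%, and 10 of them in no library. Of the 8 Slc38 genes, 1 and 0 were called in CpG 1 and CpG 2, and 1 and 1 in control 1 and control 2, a mean of 9.38%. Slc38 genes were still the nearest genes of peaks, at a mean of 75% of the members per library, against 39.6% for Slc22. Some of these peaks lay at gene starts. Slc38a6 and Slc38a10 had a region in all 4 libraries, with a summit 7 and 72 bp after the start. Slc38a2 and Slc38a1 had one in the control libraries alone, at 16 and 395 bp. The low share of Slc38 is one of promoter calls and not of peaks at the start. Each subfamily holds few genes, so 1 gene moves a share by up to 12.5 percentage points, and no test was made between subfamilies. Without CpG 1 the order of these 7 was kept, from 55.6% for Slc2 to 8.33% for Slc38.

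**Figure D4:**
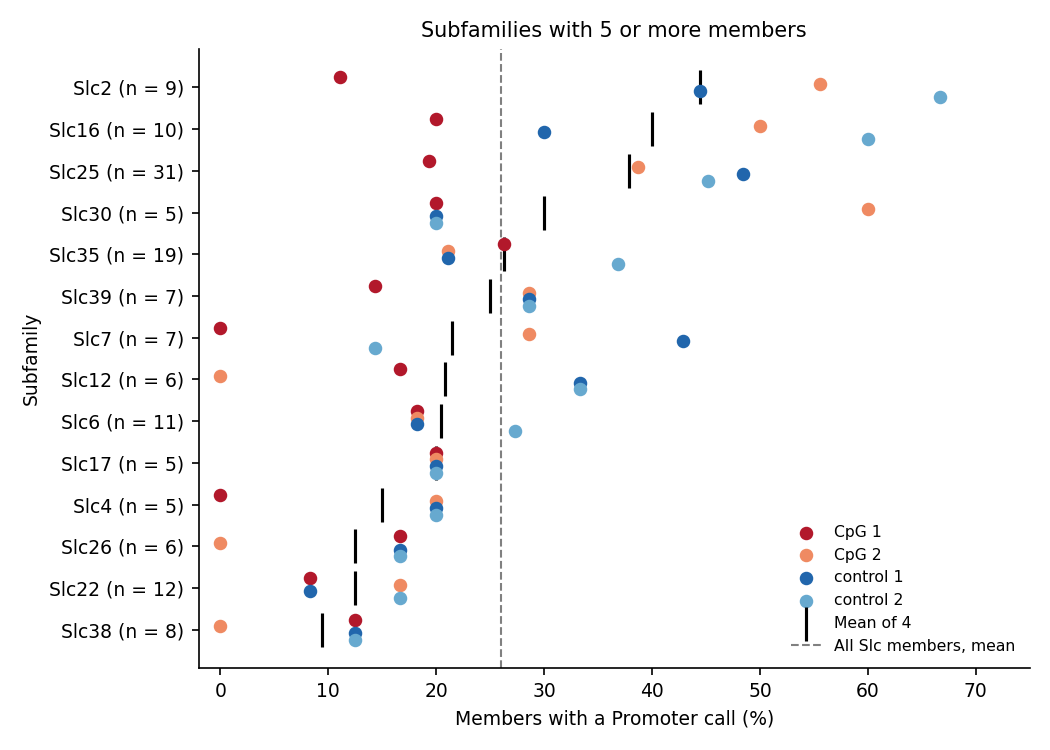
Percent of members with a Promoter call in each library (points) for the 14 Slc subfamilies with 5 or more members, ordered by the mean of the 4 libraries (black ticks). The dashed line is the mean of all Slc members, 26.0%. Slc2, Slc16 and Slc25 have the highest means and Slc38 the lowest.

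Of the 215 Slc genes, 117 (54.4%) had no promoter call in any library, against 60% of all named genes and 46.6% of protein-coding genes. Each was named through a nearest peak, so by construction its peaks lay outside its Promoter class. Of the 117, 31 had at least 1 nearest peak in all 4 libraries and 31 had a summit within 1 kb of the start in at least 1 library. The same shares were not counted for other genes without a promoter call, so these counts only describe the members. Slc3a2, Slc37a4 and Slc38a6 had such a summit in all 4. Slc45a4, Slc7a8 and Slc7a7, also without a promoter call, were among the 5 members with most nearest peaks.

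Slc45a4 was nearest to 4 and 5 peaks in CpG 1 and CpG 2, and to 14 and 14 in control 1 and control 2. One of these, about 13 kb after the annotated start but classed as intergenic, had 8.0 and 20.3 in the CpG libraries and 10.6 and 21.3 in the control libraries. A peak at the start of Slc45a4, inside an exon of 1700010B13Rik, was present in both control libraries alone, with 9.95 in control 1 and 17.4 in control 2.

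Slc7a8, a neutral amino acid transporter, was nearest to 5 and 8 peaks in CpG 1 and CpG 2, and to 6 and 9 in control 1 and control 2, all in introns. A peak about 25 kb after its start had 5.00 and 26.0 in the CpG libraries and 9.75 and 32.1 in the control libraries. Slc7a7, a cationic and neutral amino acid exchanger, had an intronic peak about 19 kb after its start with 6.34 and 34.6 in CpG 1 and CpG 2, and 7.98 and 41.9 in control 1 and control 2. At Slc7a7 and Slc7a8 alike, these peaks stood near the top of the list in CpG 2 and control 2 and lower in CpG 1 and control 1.

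Some strong peaks nearest to Slc genes lay outside promoters. Of 572 merged regions, in promoters or elsewhere, that held a peak nearest to a Slc gene, 73 (12.8%) had a peak in all 4 libraries. The share of all 55621 regions was 10.1%. A region counted if any of its peaks had a Slc gene as its nearest gene. Regions with peaks in several libraries could therefore enter more easily, which limits this comparison. The region with the highest lowest percentile lay about 24 kb upstream of Slc23a2, an ascorbate transporter gene, in an intron of Gm14051 (chromosome 2, 132010781 to 132011959), enriched 9.0-fold in CpG 1 and 28.8-fold in CpG 2, against 12.3-fold in control 1 and 47.4-fold in control 2. The next lay in an intron of Slc16a10, an aromatic amino acid transporter gene, with 9.03 and 15.0 in the CpG libraries and 18.1 and 20.4 in the control libraries. Slc17a8, a vesicular glutamate transporter gene best known from neurons, had an intronic region with 7.79 and 12.5 in CpG 1 and CpG 2 and 9.31 and 14.0 in control 1 and control 2. Slc23a2, Slc16a10 and Slc17a8 were picked after their values were seen.

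CpG-only regions numbered 10 (1.75%), against 1.15% of all regions, and control-only regions 57 (9.97%), against 8.7%. Here too 1 peak nearest to a Slc gene was enough for a region to count, so these shares are not a strictly like comparison. Without CpG 1, CpG 2 or control 2 the CpG-only regions numbered 47, 41 and 22, against 10.6%, 8.69% and 3.08% of all regions. Without CpG 2, control 1 or control 2 the control-only regions numbered 134, 199 and 139, against 20.9%, 32.8% and 23.5%. Besides the promoter of Slc41a1, the CpG-only regions included introns of Slc36a4, Slc13a1, Slc26a9, Slc38a6, Slc39a14 and Slc23a4, and intergenic regions nearest to Slc4a8 and Slc6a3. The strongest CpG-only region by its lowest percentile was an intronic peak of Slc36a4 about 5 kb after the start (7.78 and 7.95 in CpG 1 and CpG 2). The promoter of Slc36a4 was called in all 4 libraries.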

How the data were processed

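Anti-IRF5 CUT&Tag of mouse bone marrow-derived macrophages was processed by the submitters, whose processing notes name ChIPseeker, MACS2 2.1.0, BWA 0.7.12 and fastp 0.20.0. For the genome build, nothing is stated in the sources used here. The authors deposited 6 annotated lists, 1 for each of 4 libraries and 1 for each condition. A peak carries a pileup signal, a fold enrichment ratio and −log10 p-values and q-values, as deposited by the authors. Headers of the −log10 columns are damaged and were read from order and values. Lines that did not begin a peak record were skipped, and only the 21 nuclear chromosomes were kept. The 4 IgG samples had no list of their own here.

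Promoter calls were matched by gene ID (Python 3.11.15, pandas 2.3.3). No model was fitted, since the lists hold no counts. Means of the 2 conditions were compared by exact permutation of libraries, two-sided. Peaks sharing at least 1 bp were merged into regions. Calculations were tested on simulated data. Members and lists were chosen with earlier results of these data known. The genes named were a fixed list, the 8 members bound in all 4 libraries and up to 8 CpG-only and control-only members with the highest lowest percentile, the 5 with most nearest peaks, and often-called genes of subfamilies that stood out. The remaining genes named were chosen after their values were seen. Alternatives were other definitions of a bound gene, lists of equal length, a −log10 q of at least 5, protein-coding genes as background, the lists of whole conditions, 50% overlap, replicate pairing and the loss of each library.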

Additional observations from a re-analysis of the deposited data

How the results depend on the processing

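Pairing same-numbered libraries as a replicate block could not change a difference of means, and only its p-value could differ. The differences in percent of members called, in their excess and in the percent of peaks nearest to them were thus still -10.2, -0.19 and -0.05 points. Their exact sign-flip p-values were 0.5, 1 and 0.5, and 0.5 is the smallest that 2 pairs allow. Deviations of same-numbered libraries correlated at 0.0445 over 20824 named genes. The excess of the members over the background, 4.70 points as the mean of 4 libraries, turned to -3.10 against protein-coding genes, because these are called more often than all named genes. It was 6.78 with summits within 1 kb of the start and 3.72 with the 13553 strongest peaks. The CpG minus control difference of the excess was -0.19, turned to 3.44 against protein-coding genes, was -4.07 with any nearest peak, -2.37 with summits within 1 kb and -1.14 with −log10 q of at least 5, and ranged from -0.97 to 0.58 with 1 library left out. The CpG-only count, 2 members, was 1 with summits within 1 kb, 1 with −log10 q of at least 5, 1 with no overlapping control peak, 4 with any nearest peak (1.58% of named genes) and 4 by the lists of whole conditions (2.99%), and 2 to 10 with 1 library left out. The control-only count, 13, was 31 by the lists of whole conditions (12.9% of named genes) and 15 to 29 with 1 library left out. Members in all 4 libraries, 20, were 67 by any nearest peak (24.7% of named genes) and 20 to 36 with 1 library left out. Regions only in CpG, 10, became 11 to 47, and regions only in control, 57, became 65 to 199, when 1 library was left out. For 28 named genes under 4 alternatives, the number of libraries with a call moved by over 1.5 times in 36 of 112 cases, 14 of them with any nearest peak and 13 with summits within 1 kb. Depth is unknown, so a missing peak in CpG 1 is not shown to be an absent one.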
